A study of Apis mellifera with 4 samples.

Results

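The co-receptor gene AmOr002 and the sensory neuron membrane protein gene AmSNMP were measured in the antennae of honey bee (Apis mellifera) drones, the males, and workers, the females. The 2 genes were taken by name from an array of 313 genes, and each was printed as a 70-base oligonucleotide in 2 neighbouring spots, 4 of the 626 gene spots. Each of 4 arrays read in both Cy3 and Cy5 set 1 pool of drone antennae against 1 pool of worker antennae. Per the labels, each pool combined whole antennae, 50 sets of them, of bees taken at the hive entrance, the drones being mature, and every pool was collected separately, which leaves 4 independent pools of each sex. The labels give no strain, colony or age in days. Drone RNA carried the dye Cy3 on arrays 1 and 3 and Cy5 on arrays 2 and 4, with the worker RNA in the other dye. RNA of whole antennae was measured in bulk, so fewer olfactory neurons and less RNA per neuron cannot be told apart.

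Insect odorant receptors work in pairs. A variable receptor that binds the odorant joins a co-receptor that nearly all olfactory neurons of this kind share, called Orco in the fly and encoded by AmOr002 in the honey bee, and together they form an ion channel in the dendrite inside the sensillum. In Drosophila the co-receptor is also needed to carry the variable receptor into the dendrite. The sensory neuron membrane proteins belong to the CD36 family of lipid-binding membrane proteins. In Drosophila and moths a member of this group lies in the membrane of pheromone-sensing neurons, and in Drosophila it is needed for the response to a fatty pheromone. The co-receptor thus belongs to the odorant-gated channel, and the membrane protein is placed at the step where lipophilic odorants reach it.

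The drone over worker ratios of the 2 genes leaned to opposite sides. Against all negative controls AmOr002 was detected on 4 of 4 arrays in drone and 2 in worker, and AmSNMP on 2 in drone and 3 in worker; with the brightest control left out both were detected on 4 of 4 arrays in both sexes. AmOr002 was 1.34-fold higher in drone antennae by the mean of 4 arrays, and AmSNMP was 1.40-fold higher in worker antennae, with the same side on 4 of 4 arrays for each gene after normalization. These sides hold for the dyes as the label fields give them and turn round with those of the labelling protocols. With arrays centred on the median gene, the mean AmSNMP log2 ratio came close to 0, being 1.43 on array 4 and negative on the others. Neither ratio passed the threshold over all genes (adjusted p = 0.174 and 0.173, limma with Benjamini-Hochberg adjustment). At this threshold 37 of 313 genes (11.8 percent) were called, 14 (4.47 percent) higher in drone and 23 (7.35 percent) higher in worker, so 0 of the 2 genes were among them. Before adjustment 68 genes had a p below 0.05, and AmOr002 and AmSNMP were both among these.

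AmOr002 gave a signal above local background in every pool. This signal, the mean of its 2 spots in scanner units, was 10010, 3946.5, 27330.5 and 11355 in drone pools on arrays 1 to 4, against 5250.5, 2892, 26052 and 3905 in worker pools. The drone signal was the higher one on 4 of 4 arrays, by 1.91-fold on array 1, 1.36-fold on array 2, 1.05-fold on array 3 and 2.91-fold on array 4. The ranges of the sexes overlapped, since the drone pool of array 2 lay below the worker pools of arrays 1 and 3. Arrays differed in overall brightness, and a signal is therefore best read against the other sex on the same array. The median gene signal was 46.5 to 576 in drone and 110.5 to 640 in worker. Over arrays the AmOr002 signal spanned 6.93-fold in drone and 9.01-fold in worker.

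AmSNMP showed another order. Its signal above background was 4831.5, 1371.5, 16054 and 6447.5 in drone pools on arrays 1 to 4, against 5195.5, 2165.5, 20926 and 5372 in worker pools. The worker signal was the higher one on arrays 1, 2 and 3, where drone over worker was 0.930, 0.633 and 0.767. On array 4 the drone signal was 1.20-fold the worker signal before any normalization. The signal spanned 11.7-fold over arrays in drone and 9.66-fold in worker.

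**Figure D1:**
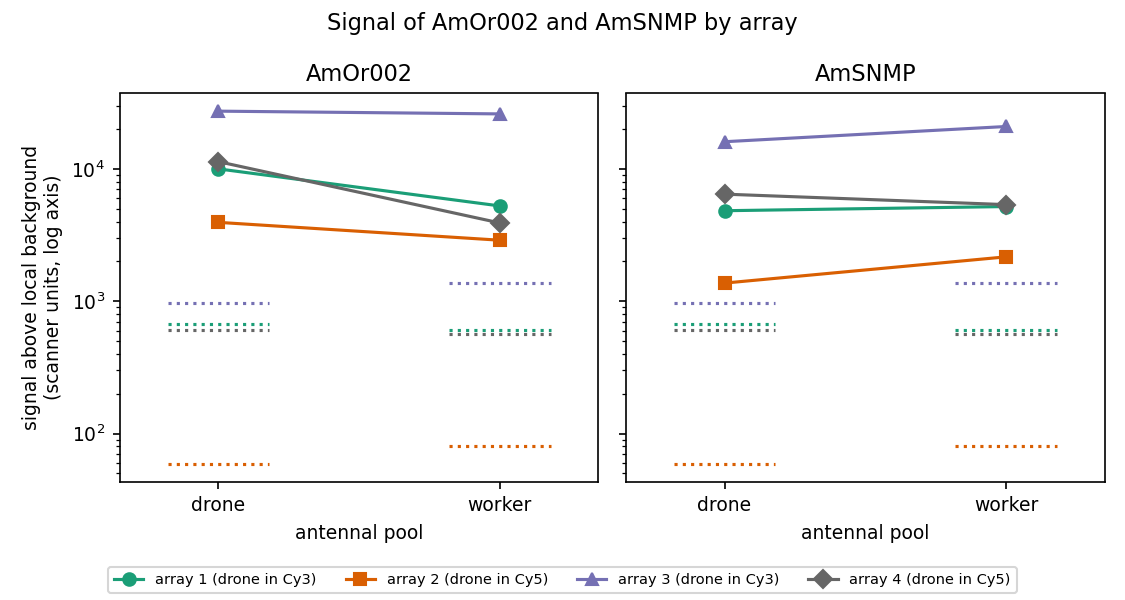
Signal above local background (scanner units, log axis) of AmOr002 and AmSNMP in the drone and worker pool of each of 4 arrays; a point is the mean of 2 spots, a line joins the pools of 1 array, and dotted bars mark the mean plus 2 SD of the negative controls without control oligonucleotide 4 in that channel. All 8 points of each gene lie above their dotted bar, the AmOr002 lines run down to worker on 4 of 4 arrays, and the AmSNMP lines run up to worker on arrays 1 to 3.

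The signals were then set against the negative control oligonucleotides printed on each array. The threshold was the mean plus 2 SD of 8 kinds of control in each channel. AmOr002 exceeded it on 4 of 4 arrays in drone and on 2 in worker, and AmSNMP on 2 in drone and 3 in worker. On arrays 1 to 4 AmOr002 lay at 1.43, 3.17, 4.38 and 1.41 times this threshold in drone and at 0.609, 1.73, 3.98 and 0.780 times in worker. AmSNMP lay at 0.688, 1.10, 2.57 and 0.800 times in drone and at 0.603, 1.30, 3.19 and 1.07 times in worker. One of the controls, oligonucleotide 4, was the brightest on every array. Without it, both genes exceeded the threshold on 4 of 4 arrays in both sexes. AmOr002 then lay at 14.8, 67.3, 28.0 and 18.9 times the threshold in drone and at 8.65, 35.9, 18.9 and 6.93 times in worker. AmSNMP lay at 7.14, 23.4, 16.5 and 10.7 times in drone and at 8.56, 26.9, 15.2 and 9.53 times in worker. Of the 167 other odorant receptors, 20 in drone and 24 in worker exceeded the same threshold on at least 3 arrays. Of all 313 genes, 90 in drone and 97 in worker did.

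Both markers of olfactory sensilla were thus detected in antennae of both sexes once oligonucleotide 4 was left out, while opsins and gustatory receptors passed the same threshold on few arrays. The 5 opsins were light receptors of the eye and the non-visual AmPteropsin. Of these, 1 in drone and 3 in worker exceeded the threshold without oligonucleotide 4 on any array, and 0 on at least 3 arrays. Of the 10 gustatory receptors, which serve taste, 1 in drone and 3 in worker exceeded it on any array and 0 on at least 3. Over all 313 genes, 152 in drone and 230 in worker exceeded it on any array, and 90 and 97 on at least 3. The summed signal of the 10 gustatory receptors ran from 229.5 to 3929.5 in drone and from 442 to 4778.5 in worker, and that of the 5 opsins from 172 to 2348 in drone and from 357 to 2657.5 in worker. The part of eye or taste tissue in the ratios of AmOr002 and AmSNMP was not tested.

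Single spots showed the same sides. The AmOr002 spots lay in print block 10 and the AmSNMP spots in block 4. All 16 spots (4 spots on 4 arrays) carried no quality flag. Local background was 44 to 220 units in drone and 56 to 149 in worker for AmOr002, and 42 to 205 in drone and 63 to 154 in worker for AmSNMP, small beside every signal. Before normalization the drone channel was the brighter one in 8 of 8 AmOr002 spots and the worker channel in 6 of 8 AmSNMP spots, the other 2 being those of array 4. The brightness of a pair of spots could differ widely, as on array 2, where AmOr002 had 5697 and 2196 units in drone against 3967 and 1817 in worker. The log2 ratios of the 2 spots nonetheless differed by 0.02 to 0.12 for AmOr002 and by 0.02 to 0.15 for AmSNMP. The median difference between the 2 spots of a gene, over all genes, was 0.13 to 0.17 by array. AmSNMP on array 3, at 0.15, lay above that array's median of 0.14. Saturated pixels occurred in 1 spot of AmOr002 on array 3, where they made up 1 percent of its pixels in Cy5, and in 0 spots of AmSNMP.

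Differences of dye and scanning within an array were reduced by loess, a curve fitted through the log2 ratios against brightness and subtracted. For AmOr002 the background-corrected log2 ratio of drone over worker was 0.92, 0.40, 0.07 and 1.57 on arrays 1 to 4 without normalization and 0.62, 0.45, 0.22 and 0.39 after it. For AmSNMP it was -0.11, -0.62, -0.37 and 0.28 without normalization and -0.40, -0.47, -0.17 and -0.91 after it. Loess brought the AmOr002 values closer together, with an SD of 0.17 over arrays after it, and it turned the sign of AmSNMP on array 4. There the curve lay at 1.17 at the brightness of AmOr002 and at 1.19 at that of AmSNMP, against a range of -0.20 to 0.29 for both genes on the other arrays. At this bright end the curve rests on few genes. Within 1 log2 unit of brightness there were 19 to 27 other genes for AmOr002 and 24 to 29 for AmSNMP, and only 16 to 26 genes were brighter than AmOr002 and 23 to 39 brighter than AmSNMP.

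**Figure D2:**
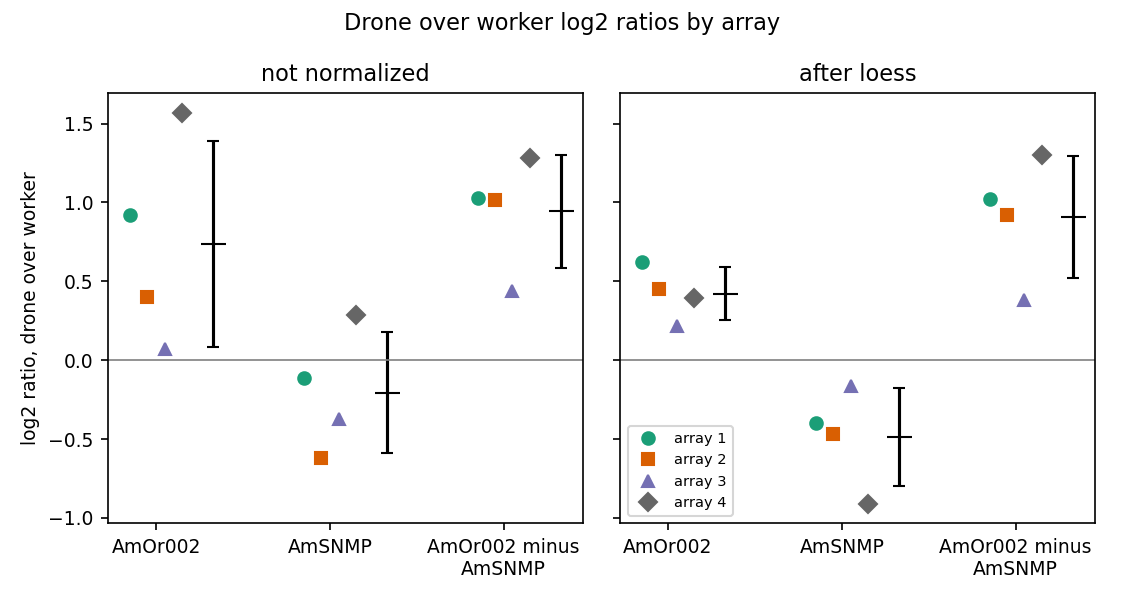
Log2 ratio of drone over worker for AmOr002 and AmSNMP, and the difference of the 2 ratios, on each of 4 arrays without normalization and after loess; black bars give the mean and SD over 4 arrays. Both panels show AmOr002 above 0 on 4 of 4 arrays, AmSNMP below 0 on 3 arrays without normalization and on 4 after loess, and the difference between 0.38 and 1.30 on every array.

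After loess the mean log2 ratio of AmOr002 was 0.42 ± 0.16 (SE, n = 4 arrays; limma adjusted p = 0.174). Its 95 percent interval, not adjusted for the number of genes, ran from 0.04 to 0.80, that is from 1.03-fold to 1.74-fold higher in drone. AmSNMP had -0.49 ± 0.18 (SE, n = 4 arrays; limma adjusted p = 0.173), with an interval from -0.92 to -0.05, or from 1.04-fold to 1.89-fold higher in worker. A difference of more than 1.89-fold in either direction lay outside both of these intervals, which hold for the loess fit only. With arrays centred on the median gene, AmOr002 had 0.92 ± 0.48 (SE, n = 4 arrays), so larger differences are not excluded there. Flipping the signs of the arrays in an exact two-sided permutation test gave p = 0.125 for each gene, the smallest that this test allows with 4 arrays. Among all 313 genes, 41 had a higher mean ratio than AmOr002 and 36 a lower one than AmSNMP. The spread of both genes over arrays, SDs of 0.17 and 0.31, was below the median gene's 0.41.

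**Figure D3:**
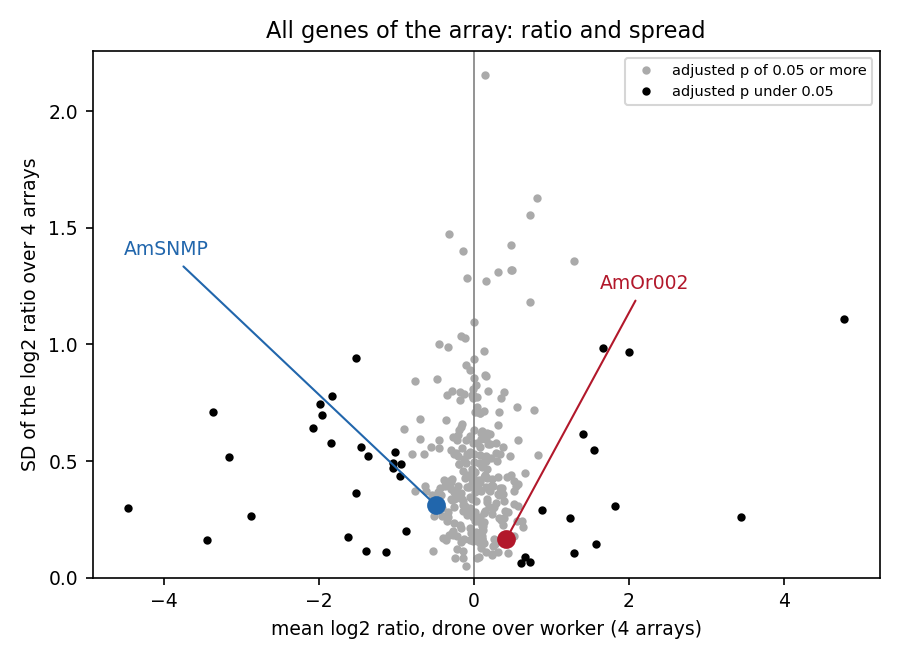
Mean log2 ratio of drone over worker (horizontal) and its SD over 4 arrays (vertical) for each of 313 genes, with AmOr002 in red and AmSNMP in blue. The 37 called genes (black) all lie farther from 0 than either gene, and AmOr002 and AmSNMP lie on opposite sides of 0 at 0.42 and -0.49, with SDs of 0.17 and 0.31.

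Dye and slide were looked at as batches. AmOr002 averaged 0.42 on the 2 arrays with drone in Cy5 and 0.42 on the 2 with drone in Cy3. AmSNMP averaged -0.69 with drone in Cy5 and -0.28 with drone in Cy3, and the dye term was not called for either gene (limma adjusted p = 0.585 for AmSNMP and 0.995 for AmOr002). Arrays 3 and 4 shared slide 7. AmOr002 averaged 0.31 on that slide and 0.54 on arrays 1 and 2, and AmSNMP -0.54 on that slide and -0.43 on arrays 1 and 2. Each gene had the same side of 0 on 4 of 4 arrays after loess, so the mean of any 2 arrays could not take the other side. These splits therefore give sizes by dye and slide and do not test the side. Without normalization AmSNMP stood at 0.28 on array 4.

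The direction of each ratio rests on which sex carried which dye. The label fields were followed, with drone in Cy5 on 2 arrays as the even dye swap requires. The ratios of all genes then correlated between arrays at r = 0.39 to 0.78, across genes, which are not independent replicates. By rank the correlation was only 0.05 between arrays 1 and 4 and 0.04 between arrays 3 and 4. It was 0.40 to 0.63 for the other pairs, so array 4 hardly ordered the genes as arrays 1 and 3 did. The authors' deposited log2 ratios correlated with the label-field ratios after loess at r = -0.98 to -0.91 across genes. They thus ran as worker over drone on each array under that reading. The text of the labelling protocols names the opposite dyes for arrays 2, 3 and 4. Read that way, the lowest correlation between arrays was -0.775, and -0.619 by rank. The mean log2 ratio was then -0.11 for AmOr002 and 0.29 for AmSNMP. Limma called 0 genes, with 8 of the 313 at an unadjusted p below 0.05.

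The ratios of the 2 genes were then compared directly within each array. The log2 ratio of AmOr002 exceeded that of AmSNMP by 1.02, 0.92, 0.38 and 1.30 on arrays 1 to 4 after loess, and by 1.03, 1.02, 0.44 and 1.28 without normalization. It was the larger of the 2 on 4 of 4 arrays either way, with array 3 the smallest. The mean difference was 0.91 ± 0.38 after loess and 0.94 ± 0.36 without normalization (SD, n = 4 arrays), so the balance of AmOr002 to AmSNMP was 1.88-fold and 1.92-fold greater in drone than in worker antennae. The same exact permutation test gave p = 0.125 for this difference, again the smallest that flipping the signs of 4 arrays can give, so this test cannot reach 0.05 whatever the size of the difference. Any constant that a centring adds to all genes of an array cancels in this difference, which makes it independent of where 0 is placed. The 2 ratios were unequal on these 4 arrays, and the test cannot show a difference beyond them. The difference also does not show which of the 2 genes differed between the sexes.

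The place of 0 matters for each gene alone. Centred on the median of all genes, without loess, the mean log2 ratio was 0.92 for AmOr002 and -0.02 for AmSNMP. Array 4 weighed heavily in these means, at 2.72 for AmOr002 and 1.43 for AmSNMP. On arrays 1 to 3 AmOr002 had 0.28, 0.70 and -0.01, and AmSNMP -0.75, -0.32 and -0.45. Centred on the 4 housekeeping genes the means were 0.59 and -0.35, centred on the median of the genes outside the odorant receptor family 0.77 and -0.18, and without normalization 0.74 and -0.20. The median of all genes lay at 0.08, -0.25, -0.07 and -0.10 under these settings, which differ only by a constant per array. Relative to that median AmOr002 therefore had to stand at the same 0.84 and AmSNMP at the same -0.10 in each. After loess they stood at 0.41 and -0.50. Neither gene was called in limma under any of the settings without loess, with adjusted p of at least 0.408. In the authors' deposited table, turned to drone over worker, AmOr002 had log2 ratios of 0.89, 0.63, 0.34 and 0.53 on arrays 1 to 4, and AmSNMP had -0.15, -0.26, 4.74e-04 and -0.67. AmOr002 was thus positive on 4 of 4 arrays there and AmSNMP negative on 3, with array 3 close to 0.

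**Figure D4:**
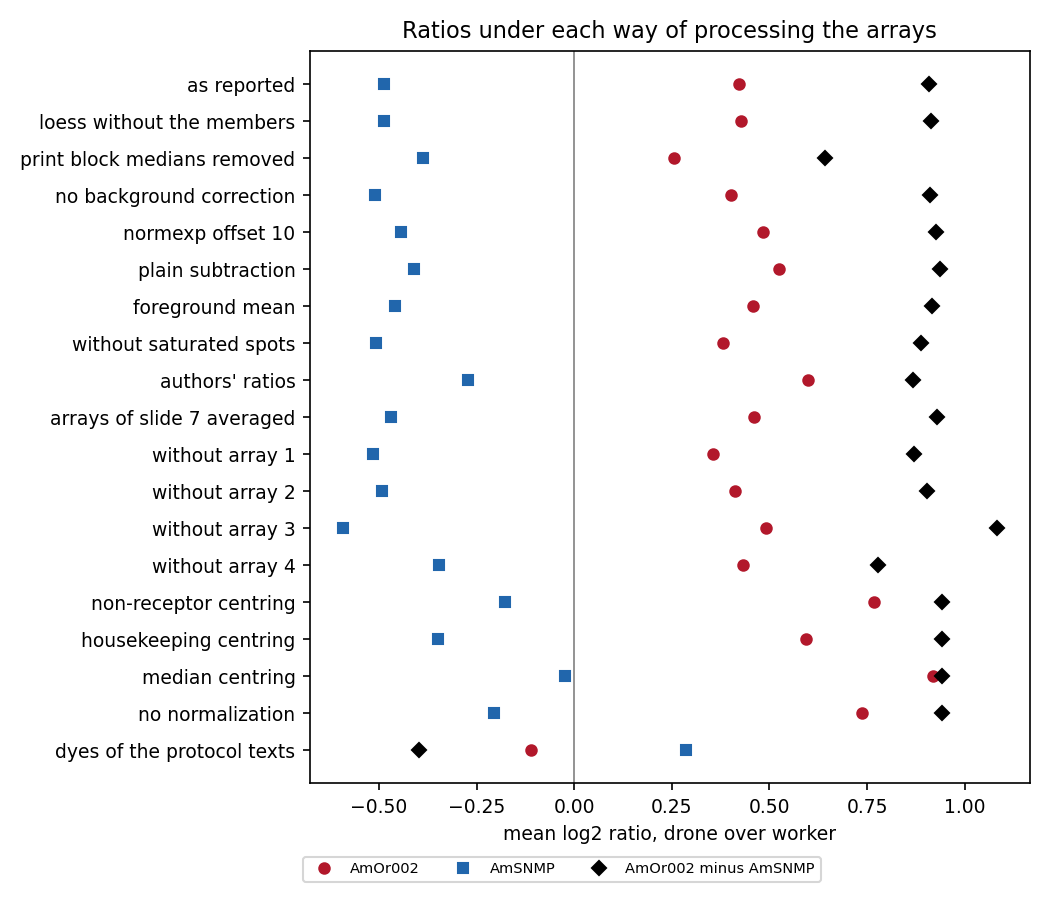
Mean log2 ratio of drone over worker for AmOr002, AmSNMP and their difference under each way of processing the arrays, one setting per row. With the dyes of the label fields AmOr002 lies at 0.25 to 0.92, AmSNMP at -0.59 to -0.02 and the difference at 0.64 to 1.08, and the bottom row, with the dyes of the protocol texts, holds all 3 on the other side of 0.

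The set of genes tested moved the call, and the print blocks moved the size. When the test was limited to the 36 genes above all negative controls on at least 3 arrays in either sex, both genes passed (limma adjusted p = 0.0415 for each), but so did 66.7 percent of those 36 genes, 11 higher in drone and 13 higher in worker. AmOr002 entered this set only through drone and AmSNMP only through worker, the sex in which each had the higher ratio, so the filter favoured such a difference and these p-values are no support for it. With control oligonucleotide 4 left out of that filter the adjusted p was 0.0511 for AmOr002 and 0.0580 for AmSNMP. When the median ratio of each print block was removed, AmOr002 had 0.25 and AmSNMP -0.39, and their difference was 0.64.

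Levels in each sex were placed on a common scale by quantile normalization of brightness between arrays. AmOr002 averaged 13.19 ± 0.37 in drone and 12.77 ± 0.50 in worker, and AmSNMP 12.18 ± 0.57 in drone and 12.66 ± 0.50 in worker (log2 intensity, SD, n = 4 pools). For both genes the gap between the sexes was close to the SD of a sex over pools, and the drone and worker values overlapped. These SDs leave the pairing by array unused. Within arrays, the log2 ratio of drone over worker had an SD of 0.17 for AmOr002 and 0.31 for AmSNMP. Array 3 gave the highest level in both sexes for both genes, at 13.74 in drone and 13.52 in worker for AmOr002 and at 12.99 in drone and 13.15 in worker for AmSNMP.

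The genes whose ratios ran most like those of each marker were sought over the 4 arrays, by the root mean square distance of the log2 ratios, among 81 other genes above the controls without oligonucleotide 4 on at least 3 arrays in both sexes. Nearest to AmOr002 were the glutathione S-transferase AmGST6 at a distance of 0.174, the tetraspanin AmTspan06 at 0.174 and the cytochrome P450 AmCyp006BD1 at 0.216, where the median gene lay at 0.661. AmGST6 had log2 ratios of 0.79, 0.66, 0.06 and 0.55 on arrays 1 to 4. Nearest to AmSNMP were the odorant receptor AmOr070 at 0.248, AmCg1, listed here with the chemosensory proteins, at 0.252 and the cytochrome P450 AmCyp335C1 at 0.296, with the median gene at 0.948. AmOr070 had 0.02, -0.45, 0.06 and -0.80, lowest on array 4 as AmSNMP was. AmSNMP stood at place 54 of 81 by nearness to AmOr002, at a distance of 0.967, and AmOr002 at place 44 of 81 by nearness to AmSNMP. None of the 6 nearest genes was called over all genes (limma adjusted p from 0.147 to 0.509).

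The other genes of the olfactory sensillum give the setting for the 2 markers. Of the 167 other odorant receptors, the partners of the co-receptor, 6 passed the test as higher in drone, 8 as higher in worker and 153 were not called, with a median log2 ratio of -0.03 beside 0.01 for all 313 genes. The 14 calls became 5 under median centring, 1 under housekeeping centring, 9 under non-receptor centring, 6 without normalization, 2 in the set of 36 genes, 0 with the protocol-text dyes, and 7, 5 and 7 without arrays 1, 2 and 3. Of these receptors 15 had a higher mean ratio than AmOr002, beside 41 of all 313 genes. Of 19 odorant binding proteins, the carriers that bring odorants through the sensillum fluid, 0 passed as higher in drone and 7 as higher in worker, with a median of -0.28. Of these proteins 9 had a lower mean ratio than AmSNMP, beside 36 of all 313 genes. Over all genes 7.35 percent were called higher in worker. The 7 calls became 1 under median centring, 3 under housekeeping centring and 0 with the protocol-text dyes, and in both sets limited to detected genes 1 binding protein was called higher in drone. Of 6 chemosensory proteins, 0 passed as higher in drone and 1 as higher in worker, with a median of -0.33. That call was lost under median and housekeeping centring and with the protocol-text dyes, and with a dye coefficient there were 2. The 3 G-protein alpha subunits, the 4 arrestins and the 10 gustatory receptors held 0 calls in limma over all genes in either direction, with medians of 0.34, 0.02 and 0.10, and the 4 housekeeping genes 0 calls with a median of 0.02. Over all genes 11.8 percent were called in either direction, so lists this short could hold 0 calls at that share. Before adjustment, 1 of the G-protein subunits, AmGpAsOlf with a log2 ratio of 0.51, and 0 of the arrestins, gustatory receptors and housekeeping genes had a limma p below 0.05. These medians moved with the processing. Over 19 alternatives computed on all genes with the label-field dyes they ran from -0.41 to -0.04 for the odorant binding proteins and from -0.44 to -0.11 for the chemosensory proteins, always below 0. They crossed 0 for the G-protein subunits (-0.07 to 0.49), the arrestins (-0.43 to 0.26), the gustatory receptors (-0.13 to 0.19) and the housekeeping genes (-0.13 to 0.32), and reached 0.00 from -0.36 for the odorant receptors. The median of all genes itself ran from -0.25 to 0.08 over the same alternatives. Its lowest value came under housekeeping centring, which also gave the -0.44 of the chemosensory proteins and the -0.36 of the odorant receptors.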

How the data were processed

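The 4 scanner tables, 1 per array, were used. The authors deposited spot intensity values without normalization: foreground and local background medians and means at 635 nm (Cy5) and 532 nm (Cy3), with the percent of saturated pixels and a quality score per spot, per the file headers. Scanner and image software are not named in the sources used here. The authors also deposited a table of log2 ratios per spot, whose base and direction were set against the scanner values (worker over drone on all 4 arrays) and whose centring stays unknown; its column medians were -0.02, -0.09, -0.06 and 0.08.

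Normexp (offset 50, all spots) corrected the foreground medians in limma 3.58.1, run under R 4.3.3, spots with the absent code -75 were then dropped, log2 ratios were loess-normalized within arrays (span 0.3, control spots at weight 0), spots of a gene averaged, ratios turned to drone over worker by the dye label fields, and 313 genes fitted (lmFit, eBayes; two-sided, Benjamini-Hochberg threshold 0.05). Saturated spots kept their values. Loess assumes ratios centre on 0 at each brightness. Intensities give no counts, so the number of arrays limits the precision. The fit was tested on simulated data.

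Members and lists were chosen with earlier results of these data known. The naming rule took AmOr002, AmSNMP, the 3 genes nearest to each, and the G-protein, arrestin and housekeeping genes, which are given as lists. RefSeq's gene table (Amel_HAv3.1) holds 1 protein-coding gene with the symbol Or2, matched to AmOr002; AmSNMP was not matched. The table's build differs from the array's, so no coordinates are given.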

Additional observations from a re-analysis of the deposited data

Results flagged for a closer look

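Among 24 sets of 4 array values, 3 had 1 array apart from the other 3, where chance marks about 1 in 20; none of them belonged to AmOr002 or AmSNMP, and all 3 were on array 4. The G-protein subunit AmGpAsQ had a log2 ratio of drone over worker of -0.97 on array 4 and 0.33 to 0.54 on the others. The arrestin AmARR3 had 1.25 on array 4 and -0.57 to -0.26 on the others. The housekeeping gene AmCytoActin had 1.28 on array 4 and -0.52 to -0.23 on the others. The part of array 4 in the ratios of AmOr002 and AmSNMP is measured by leaving it out, which gave 0.43 for AmOr002 and -0.35 for AmSNMP.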

How the results depend on the processing

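With the dyes of the label fields, AmOr002 stayed positive and AmSNMP negative under all 21 alternatives, and their difference stayed positive under all 17 run for it. Many of these could not change a sign. A dye coefficient, duplicate spots as replicates and both filters to detected genes returned the reported means of 0.42 and -0.49. Leaving out 1 array or averaging slide 7 could not turn a gene with the same side on 4 of 4 arrays. Each centring and no normalization gave the same difference, 0.94. AmOr002 ran from 0.25 to 0.92 (adjusted p 0.0415 to 0.958), AmSNMP from -0.59 to -0.02 (adjusted p 0.0415 to 1.00) and the difference from 0.64 to 1.08. Only the filter to 36 genes above all controls gave calls, at 0.42 for AmOr002 and -0.49 for AmSNMP. Fewer genes were tested there, and AmOr002 passed the filter only through drone and AmSNMP only through worker, the sex where each ratio was higher, so these calls are no support. Leaving out 1 array gave 0.35 to 0.49 for AmOr002, -0.59 to -0.35 for AmSNMP and 0.78 to 1.08 for the difference, none of them called. With the dyes of the protocol texts the values were -0.11, 0.29 and -0.40, and among the genes nearest to them AmGST6 had -0.12, AmTspan06 -0.14, AmCyp006BD1 -0.12, AmOr070 0.30, AmCg1 0.31 and AmCyp335C1 0.081. AmCg1 also changed sign under median centring (0.079). The total of 37 called genes was 8 under median centring, 7 under housekeeping centring, 21 under non-receptor centring, 17 without normalization, 0 with the protocol-text dyes, 24 among the 36 genes and 19 to 43 with 1 array left out, 23, 19 and 24 without arrays 1, 2 and 3; the cause was not tested. Against the controls, leaving out oligonucleotide 4 put AmOr002 in worker, AmSNMP in drone and AmSNMP in worker on 4 arrays, and a threshold of 3 SD put AmSNMP on 1 array in each sex. Removing print block medians, loess without the 2 genes and averaging slide 7 were chosen after seeing the data. The slide as a random block could not be fitted with 1 shared slide, and was not run. The pairing of 1 drone and 1 worker pool on each array was used, since every ratio was taken within an array. No further pairing was available because all arrays form 1 group.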
